A study of Mus musculus with 12 samples.

Results

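In 12 chromatin libraries from mouse lung endothelial cells, the regions described here carried counts of at least 2 histone marks in libraries of 1 genotype and no count at all in the other. A region was chosen when its counts were 0 in all 6 libraries of a genotype and at least 1 in 3 or more of the 6 libraries of the other genotype, from at least 2 marks. The members were thus chosen by their counts in all 12 libraries. The rule found 10873 of 1192075 regions: 8351 counted only in libraries labelled CSE-KO (CSE-KO-only regions) and 2522 counted only in libraries labelled WT (WT-only regions). Because of this choice, the absence from 1 genotype is a description and not a finding.

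The study profiled endothelial cells isolated from the lungs of WT mice (labelled Cre-neg) and CSE-KO mice (labelled Cre-pos) by antibody-guided chromatin tagmentation (ACT-seq). The marks were H3K23ac, H3K27ac and H3K4me3, with 2 libraries per genotype and mark. The 2 genotypes differ in CSE and in Cre status together, and those cannot be told apart here. The promoter that drives Cre, the floxed allele, the sex and age of the mice, and whether replicates or marks share animals could not be read from the labels. The p-values below measure how libraries vary, and part of that variation may be technical.

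CSE, cystathionine gamma-lyase, is the enzyme of the transsulfuration pathway that splits cystathionine to release cysteine, and in endothelium it is also known as a source of hydrogen sulfide. Acetylation of lysine 27 on histone H3 marks active promoters and enhancers, trimethylation of lysine 4 marks active promoters, and acetylation of lysine 23 is a further mark of active chromatin. In ACT-seq an antibody tethers the Tn5 transposase, which cuts and tags DNA beside the marked nucleosome. Active regulatory regions often carry several of these marks together, and a region counted in several marks of 1 genotype only is the extreme form of a shared difference.

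Each region carries a name made of a list number and a running number, with no position and no gene, so promoters, genes and sequences of the members were not analysed here and the endothelial label could not be checked against marker genes. The list number was read as the library number of the labels. The matching library placed a larger share of its counts on the list than any other library did, for 12 of the 12 lists. Library totals ran from 396441 counts in WT H3K4me3 replicate 1 to 4242014 in CSE-KO H3K27ac replicate 1, which stood apart as the deepest, at 3.82 times the shallowest H3K27ac library. No library had a count at 47% of regions, and in each list between 42.4% and 76.3% of regions had 0 counts in the library of their own list.

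CSE-KO-only regions outnumbered WT-only regions 3.31-fold, by 5829 regions, in the counts as deposited. The CSE-KO-only regions were 0.701% of all regions, and 4.55% of the 183617 regions with counts in at least 3 CSE-KO libraries and 2 marks. The WT-only regions were 0.212% of all regions, and 1.67% of the 150573 regions that met the same requirement in WT. A region with a count in at least 3 libraries and 2 marks of 1 genotype was thus nearly always counted in the other genotype too.

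The members had few counts beside regions that met the same requirement and had 2 or more counts in the other genotype. Those had a median summed count of 37 (requirement met in CSE-KO) and 36 (in WT), counts of the other genotype included. CSE-KO-only regions had a median of 14 counts summed over all libraries (lowest 3, highest 168) and WT-only regions a median of 13 (lowest 3, highest 191). A single library held a median of 66.7% of the counts of a CSE-KO-only region and 75% of those of a WT-only region. The second highest library had a median of 3 counts in CSE-KO-only regions and 2 in WT-only regions, and in 49% and 71.5% of members, respectively, it had no more than 2. Most members met the rule with the fewest libraries allowed: 7399 CSE-KO-only regions (88.6%) and 2350 WT-only regions (93.2%) were counted in exactly 3 libraries. A count in 5 libraries was found at 78 CSE-KO-only and 8 WT-only regions, and in all 6 at 3 CSE-KO-only regions and 0 WT-only regions.

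The surroundings of the rule's thresholds held more regions than the sets. In CSE-KO, 10682 regions were counted in exactly 2 libraries of 2 marks with none in WT, and 12198 regions met the requirement in CSE-KO but had a single count in WT. In WT these numbers were 7608 and 3769. A single added count in the other genotype would therefore move a region from inside to outside, and more regions lay 1 count outside than inside in both genotypes.

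Among the marks, H3K27ac was present at nearly every member. At least 1 H3K27ac library had a count at 8296 CSE-KO-only regions (99.3%) and 2501 WT-only regions (99.2%), and both H3K27ac libraries at 85% and 80.5%. H3K23ac joined at 62.8% of CSE-KO-only and 70.1% of WT-only regions, but both H3K23ac replicates had a count at only 2.48% and 2.7%. H3K4me3 was counted at 52.7% and 48.2% of members, and in both of its replicates at 10% and 6.46%. Presence of H3K27ac was just as common among all regions that met the requirement in the same genotype, at 99.6% in CSE-KO and 99.1% in WT. H3K23ac was present at 63.7% and 67.6% of those regions, close to its share among the members. H3K4me3 was present at 64.8% and 61.9% of them, above its share among the members. Counts in both replicates were more common there than among the members for each mark. In CSE-KO and WT these shares were 90.7% and 87.2% for H3K27ac, 10.8% and 8.16% for H3K23ac, and 25.5% and 22.4% for H3K4me3. By number of counts the order was different: H3K23ac libraries held 64% of the counts of CSE-KO-only and 73.6% of those of WT-only regions, and H3K27ac libraries 27.6% and 16.1%. These shares also depend on library totals. Per 1000000 counts of a library, CSE-KO-only regions held 32882 and 27265 in H3K23ac, 7210 and 10720 in H3K27ac, and 12793 and 14243 in H3K4me3. WT-only regions held 10795 and 10172, 3236 and 3082, and 4069 and 6039 in the same order of marks.

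The pairs of marks had a similar order in both sets. H3K23ac with H3K27ac made up 47.3% of CSE-KO-only and 51.8% of WT-only regions, and H3K27ac with H3K4me3 37.2% and 29.9%. All 3 marks were counted at 1242 CSE-KO-only regions (14.9%) and 440 WT-only regions (17.4%). H3K23ac with H3K4me3 and without H3K27ac was rare, at 55 and 21 regions. The 4 most frequent combinations of libraries in each set were the 2 H3K27ac libraries with 1 further library. In CSE-KO these were H3K23ac replicate 1 (2015 regions), H3K23ac replicate 2 (1788), H3K4me3 replicate 1 (1322) and H3K4me3 replicate 2 (1136). In WT the combination with H3K23ac replicate 1 alone held 953 regions, or 37.8% of the set.

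**Figure D1:**
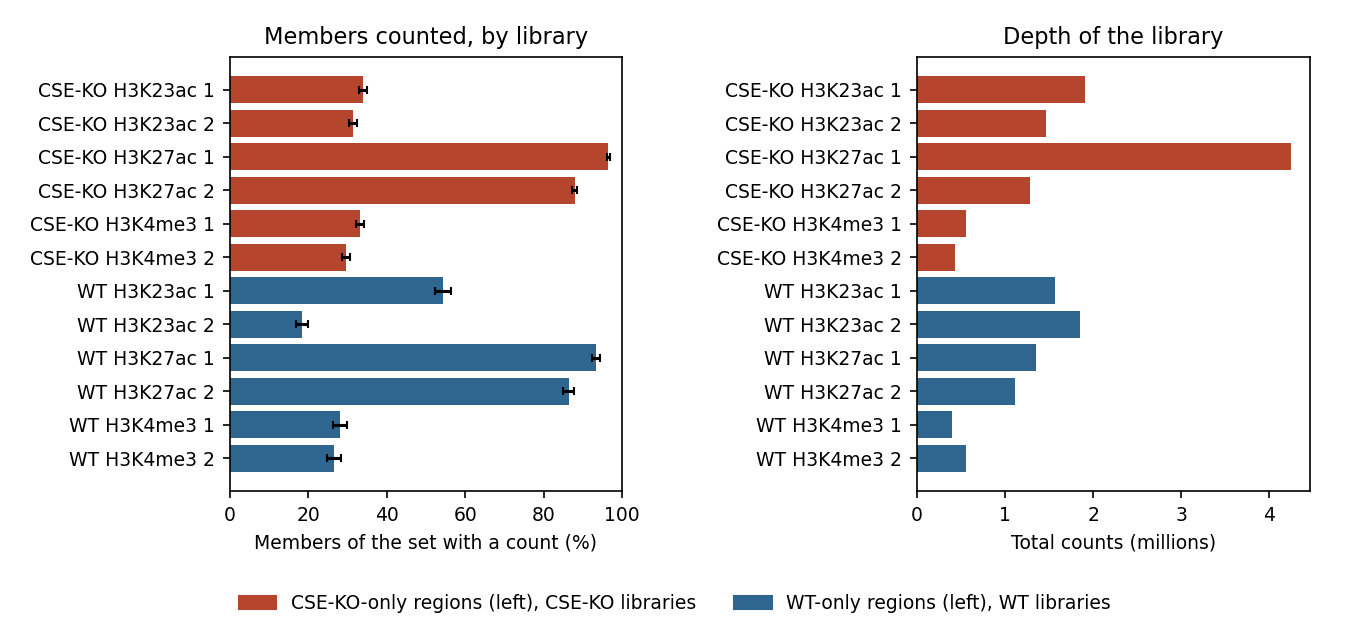
The left panel plots, for each library, the share of its genotype's set that had a count there (bars, with Wilson 95% intervals), and the right panel the total counts of the same libraries. The H3K27ac libraries hold counts at 86.4% to 96.4% of members, and CSE-KO H3K27ac replicate 1 stands out in depth.

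By library, CSE-KO H3K27ac replicate 1 had a count at 8053 CSE-KO-only regions, or 96.4% (Wilson 95% interval 96 to 96.8), and replicate 2 at 7342, or 87.9% (87.2 to 88.6). The CSE-KO H3K23ac libraries had counts at 33.9% and 31.4% of the set and the CSE-KO H3K4me3 libraries at 33.1% and 29.6%. In WT, the H3K27ac libraries had counts at 93.3% and 86.4% of WT-only regions and the H3K4me3 libraries at 28.1% and 26.6%. WT H3K23ac replicate 1 covered 54.4% and replicate 2 only 18.4%, a gap between replicates that the CSE-KO H3K23ac libraries did not have. These intervals were taken over the regions of a set as if regions were independent. They do not measure how libraries or mice vary, and the rule itself limited the shares. Reads copied by PCR are not independent molecules either.

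The depth of the signal differed between marks within the same members. Where a CSE-KO-only region had a count, the median was 19 and 12 counts in the H3K23ac libraries, 3 and 1 in the H3K27ac libraries and 2 and 2 in the H3K4me3 libraries. In WT-only regions it was 11 and 31 counts for H3K23ac, 1 and 1 for H3K27ac and 2 and 5 for H3K4me3. The high H3K23ac values belonged mostly to regions that the same library had named. In members named by other lists, the median fell to 3 and 2 counts in the CSE-KO H3K23ac libraries and to 2 and 1 in the WT ones. A presence in H3K27ac replicate 2 was a single count at 54% of the CSE-KO-only regions where it was present, and at 65.2% of the WT-only regions.

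Most members had been named by a library of the genotype in which they were counted, a split that is not independent of the rule and is given as a description. Lists of CSE-KO libraries named 7666 (91.8%) of the CSE-KO-only regions, and lists of WT libraries named 2359 (93.5%) of the WT-only regions. Among all regions that met the requirement in that genotype these shares were 75.1% and 58.3%, and among all regions 55.2% and 44.8%. H3K23ac lists named most members, 63.4% of the CSE-KO-only and 67.4% of the WT-only regions, although H3K27ac was the mark present at nearly all of them. H3K4me3 lists named 21.1% and 25.1%, and H3K27ac lists 15.6% and 7.49%. The lists differ in length, which these shares by mark do not take into account. Where a library had counts in a member of its own list, it held a median of 70% of the counts of a CSE-KO-only region and 75% of those of a WT-only region.

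Set against the length of the list, the H3K23ac lists of CSE-KO replicates 1 and 2 held 238 and 234 CSE-KO-only members per 10000 regions, and the CSE-KO H3K4me3 lists 166 and 149. The CSE-KO H3K27ac lists, the longest of the CSE-KO lists with 214924 and 136286 regions, held 35.7 and 30.7. In WT the H3K23ac lists held 82.1 and 61.8 WT-only members per 10000 regions, the H3K4me3 lists 43.3 and 70.5, and the H3K27ac lists 3.46 and 7.31. The order of H3K23ac and H3K4me3 lists above H3K27ac lists was the same in both genotypes.

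Some members had been named by a library that then had no count in them. Lists of WT libraries named 685 CSE-KO-only regions (8.2%), and lists of CSE-KO libraries named 163 WT-only regions (6.46%). By the rule all of these had 0 counts in the library of their own list. Together with members of the same genotype's lists, 1193 CSE-KO-only regions (14.3%) and 228 WT-only regions (9.04%) had 0 counts in the library that named them. How reads that overlap several regions were counted was not given in the sources used here, and its part in these zeros was not tested.

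**Figure D2:**
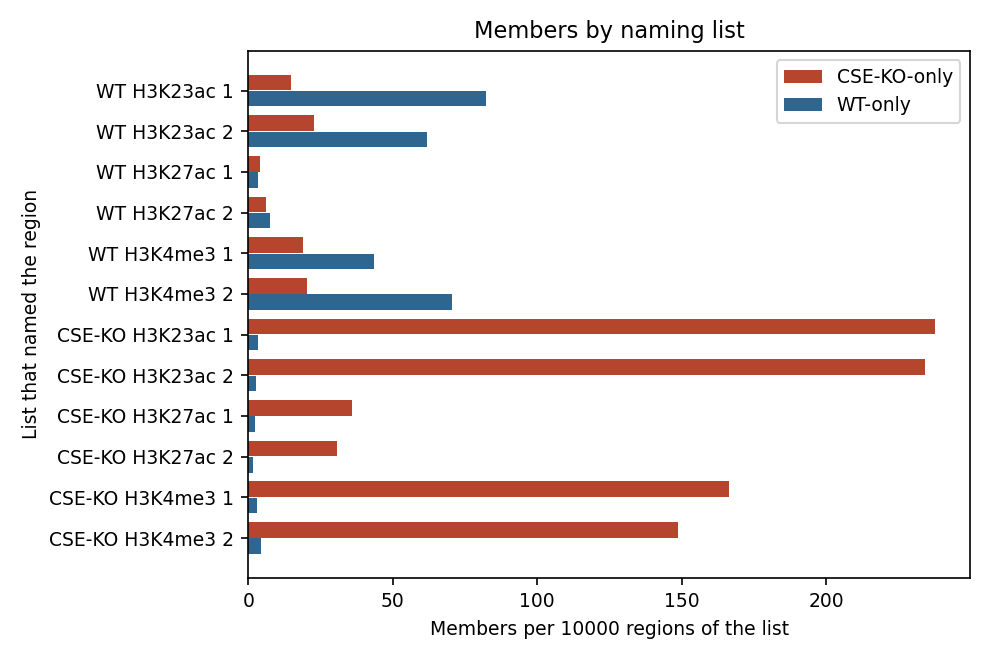
Bars give the number of CSE-KO-only and WT-only regions per 10000 regions of each of the 12 naming lists, called by the library they were read as. The CSE-KO H3K23ac lists are highest with 238 and 234, and the WT H3K27ac lists are low for both sets.

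Running numbers of the members ran over the whole of the lists. In the CSE-KO H3K23ac lists 49.7% and 49.5% of CSE-KO-only members had a running number in the first 50% of the list and 10.6% and 10.2% in its last 10%. Of the CSE-KO-only regions 405 (4.85%) had a running number next to that of another member in the same list, and of the WT-only regions 56 (2.22%). In the list of CSE-KO H3K23ac replicate 1, where members made up 2.38% of regions, 6.97% of them had such a neighbour, against 4.68% of all regions of that list. In the list of CSE-KO H3K4me3 replicate 1 these shares were 5.24% and 3.3%. What the running number follows was not stated in the labels.

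The strongest member was peak7_55658 of the list of CSE-KO H3K23ac replicate 1, ranked by the number of libraries and then by its lowest level. It had 67 and 7 counts in the CSE-KO H3K23ac libraries, 41 and 12 in the H3K27ac libraries and 11 and 6 in the H3K4me3 libraries, and 0 in all 6 WT libraries. Scaled to 1000000 counts per library (CPM), these were 35.1 and 4.77 for H3K23ac, 9.67 and 9.33 for H3K27ac, and 19.5 and 13.8 for H3K4me3. The 2 H3K27ac replicates were close on this scale, whereas the H3K23ac replicates were far apart. Pooled over the CSE-KO libraries its level was 14.5 CPM, which is 33.2 times a floor taken for WT. That floor was 3 counts among the 6840434 counts of the 6 WT libraries (0.439 CPM). Since the rule chose the 0 counts in WT, such ratios describe the level and are no lower bound of a fold. The regions before and after it in its list did not share the pattern: the first had no count in any library, and the second had 23 counts in CSE-KO, of which 20 came from H3K23ac replicate 1, and 3 in WT.

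Only 2 other members were counted in all 6 libraries of a genotype. The region peak7_44759, also of the list of CSE-KO H3K23ac replicate 1, had 1 and 1 counts in H3K23ac, 3 and 3 in H3K27ac and 2 and 2 in H3K4me3. Its 12 counts gave a pooled level of 1.21 CPM, which is 2.76 times the WT floor. A region of the list of CSE-KO H3K23ac replicate 2 had 1 and 12, 2 and 3, and 1 and 1 counts in the same order of marks. Its pooled level was 4.61 times the floor. Outside the naming library both had 1 to 3 counts per library, where a single count is a large part of the value. On the CPM scale their H3K27ac replicates were apart, at 0.707 and 2.33 for peak7_44759 and 0.471 and 2.33 for the other region.

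The next 7 CSE-KO-only regions in this order were counted in 5 libraries each, with 33 to 76 counts, and all were named by a CSE-KO H3K23ac list. In 6 of the 7 only 1 of the 2 H3K23ac replicates had counts. The exception, of the list of CSE-KO H3K23ac replicate 2, had 30 and 22 counts in H3K23ac, 6 and 3 in H3K27ac, and 0 and 3 in H3K4me3. Its pooled level was 14.7 times the floor. In the others H3K27ac replicate 1 had 5 to 13 counts and replicate 2 between 2 and 5.

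No WT-only region was counted in all 6 WT libraries. The first in order, peak1_136228 of the list of WT H3K23ac replicate 1, had 18 and 0 counts in the WT H3K23ac libraries, 2 and 2 in H3K27ac and 2 and 4 in H3K4me3. Its pooled level of 4.09 CPM was 13.5 times the floor taken for CSE-KO, 3 counts among 9902271 in the CSE-KO libraries (0.303 CPM). Here too the rule chose the 0 counts, and the ratio is no lower bound. The region peak5_21024, named by WT H3K4me3 replicate 1, had 2 and 0 counts in H3K23ac, 3 and 3 in H3K27ac, and 11 and 3 in H3K4me3. Its pooled level was 10.6 times that floor. In 7 of the next 8 WT-only regions the library of the own list had the highest count, as in a region of the list of WT H3K23ac replicate 2 with 98 counts in that library and 0 in its replicate, 1 and 1 in H3K27ac, and 1 and 9 in H3K4me3.

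The members were too sparse for a test region by region. A single genotype term over the 3 marks was fitted to the 12 libraries with edgeR's quasi-likelihood test, and 28976 regions passed its filter on low counts. These held 5 of the 8351 CSE-KO-only and 0 of the 2522 WT-only regions, and the 5 passed through the CSE-KO libraries alone. The test called 0 regions, or 0% of those tested (Benjamini-Hochberg adjusted p under 0.05), with 611 (2.11%) at an unadjusted p under 0.05, among them all 5 members. The rule used this contrast, so their folds are given without weight. DESeq2 called 1 region in the same 12 libraries, and it was a CSE-KO-only member.

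That member was peak7_55658. Of all 28976 regions it had the lowest p in the edgeR fit, at 7.13 ± 1.5 (log2 fold change, edgeR adjusted p = 0.969). The 1.5 is the fold divided by the square root of the F statistic. It is only an approximate SE, and with 0 counts in WT no reliable one. DESeq2 gave 6.07 ± 1.21 (log2 fold change ± the SE that DESeq2 reports, DESeq2 adjusted p = 0.0163). Over the 19 fits that tested it the log2 fold change ran from 6.07 to 7.51 and the adjusted p (edgeR or DESeq2) from 0.0163 to 1, below 0.05 in 1 fit. With 0 counts in WT such fitted folds depend on the prior count and are no bound. In fits of each mark alone, 16 CSE-KO-only regions were tested for H3K23ac, 3 for H3K27ac and 2 for H3K4me3. Of these edgeR called 0, and 0, 3 and 0 of all tested regions. An unadjusted edgeR p under 0.05 was found at 6, 3 and 2 of these members. Among all tested regions it was found at 651 of 12365, 482 of 10666 and 475 of 10960. The rule chose the members by their 0 counts in WT, so their p-values carry no weight as a test.

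Whether the number of such regions was particular to genotype was asked by exchanging the genotype labels of libraries within each mark, in all 216 possible ways, and applying the rule each time. The difference of 5829 regions between the sets was reached or passed in 110 of the 216 assignments (exact permutation test, two-sided p = 0.509, where the smallest possible is 0.00926). The sum of 10873 regions lay close to the median of 10931 over the assignments (8702 to 17194) and was likewise reached in 110 (exact permutation test, one-sided p = 0.509). Neither the excess of CSE-KO-only regions nor the number of one-genotype regions was thus larger than that found between libraries grouped without regard to genotype. The test treats libraries of different marks as independent samples.

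The side that held CSE-KO H3K27ac replicate 1 had the larger set in 216 of 216 assignments. That side had a median of 8662 regions (4678 to 16080) and the other side a median of 2234.5 (1114 to 4147). The labels as given, with 8351 and 2522, lie near both medians.

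**Figure D3:**
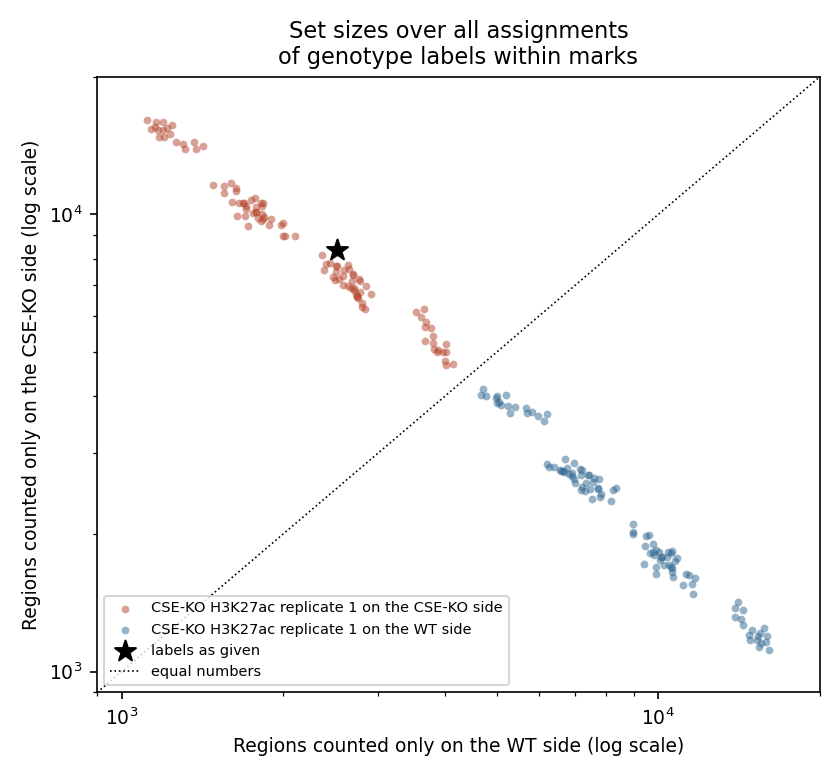
Each point is one of the 216 assignments of genotype labels within marks, with the number of regions counted only on the WT side (x axis, log scale) and only on the CSE-KO side (y axis, log scale), coloured by the side of CSE-KO H3K27ac replicate 1. The star marks the labels as given (8351 and 2522), which sit among the other assignments, and the side with the deepest library is always the larger.

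At equal library totals the direction turned. With the libraries of each mark thinned at random to the lowest total of that mark (1466588 counts for H3K23ac, 1110254 for H3K27ac and 396441 for H3K4me3), 5626.2 ± 63.9 regions were CSE-KO-only and 7441.1 ± 52.1 WT-only (SD over 10 draws of the same libraries). The WT-only set was the larger in each draw, by 1691 to 1921 regions, and this difference was not larger than between other groupings either (exact permutation test, two-sided p = 0.602). Of the CSE-KO-only members 56.2% remained members after thinning, and 89.2% of the WT-only members. The thinned WT-only set gained 5191.4 regions per draw, which in the full libraries had a median of 2 counts in CSE-KO. Of these, 95.8% had a count in CSE-KO H3K27ac replicate 1, as had 96.9% of the regions gained by the thinned CSE-KO-only set. That library had a count at 529762 of the 631948 regions with any count. The share was thus not particular to the gained WT-only regions.

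Equal totals did not make the libraries equal outside their own lists. CSE-KO H3K27ac replicate 1 held 59% of its counts outside its own list, against 84.4% to 89.2% in the other H3K27ac libraries. At equal totals this left it with 654715 such counts, against 937080 to 990018 in the other 3. With libraries thinned instead to equal counts outside the own list within each mark, a check added after the first thinning was seen, 6644 ± 35.8 regions were CSE-KO-only and 5517.4 ± 45.1 WT-only (SD over 10 draws; exact permutation test of the difference, two-sided p = 0.796). Without CSE-KO H3K27ac replicate 1, 1226 regions were CSE-KO-only and 15791 WT-only, and without CSE-KO H3K27ac replicate 2 these were 1867 and 4632. Without WT H3K27ac replicate 1 the numbers were 26688 and 330, and without WT H3K27ac replicate 2, 18183 and 502. Leaving out a library of a genotype makes the rule harder to meet for that genotype's set and easier for the other, so that such shifts follow in part from the rule. The larger set was the WT-only set at equal totals and the CSE-KO-only set at equal counts outside the own list.

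**Figure D4:**
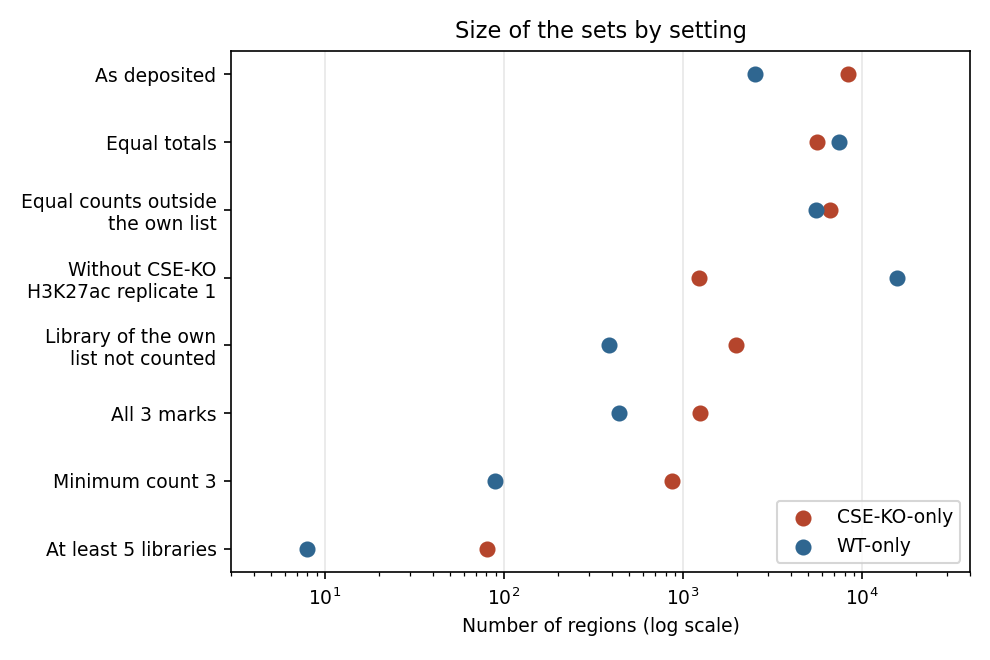
Points give the number of CSE-KO-only and WT-only regions (x axis, log scale) in the counts as deposited and in 7 other settings. The order of the 2 sets turns at equal totals (5626.2 and 7441.1) and without CSE-KO H3K27ac replicate 1 (1226 and 15791).

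Stricter forms of the rule kept more CSE-KO-only than WT-only regions in the counts as deposited, where CSE-KO is the deeper genotype. A minimum of 3 counts left 867 and 89 regions, at least 4 libraries left 952 and 172, and at least 5 libraries 81 and 8. When the library of the own list was not counted toward the 3 libraries, 1980 CSE-KO-only and 385 WT-only regions were left, so that 1595 more were CSE-KO-only (exact permutation test, two-sided p = 0.269). In none of these was the difference larger than between other groupings within marks, with p-values of 0.213 to 0.528.

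A mark that took no part in the choice gives an independent reading. For this, regions were chosen in 8 libraries of 2 marks, with 0 counts in the 4 libraries of a genotype and a count in at least 3 of the 4 of the other. Their counts were then read in the 4 libraries of the third mark, leaving out regions named by that mark's lists. In H3K27ac, the mark of best coverage, most regions chosen as one-sided in H3K23ac and H3K4me3 had counts in both genotypes. These were 1985 of the CSE-KO-chosen and 900 of the WT-chosen regions. Counts of H3K27ac were common everywhere: its libraries had a count at 365075 to 529762 of the 631948 regions with any count. Presence in this mark therefore says little about a genotype difference in level. Of 2254 regions chosen as CSE-KO-only, 78.7% and 74.7% had counts in the WT H3K27ac libraries and 92.8% and 78.7% in the CSE-KO ones. Of 1023 regions chosen as WT-only, 92.3% and 77.2% had counts in the CSE-KO libraries and 79.3% and 75.6% in the WT ones. At least 1 H3K27ac library of the supposedly absent genotype had a count at 90% of the former and 95.1% of the latter. H3K27ac counts restricted to the chosen genotype were found at 174 and 29 regions, respectively.

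The same reading in H3K4me3 gave 5281 regions chosen as CSE-KO-only, with counts at 12.6% and 11.3% in the CSE-KO and 12.1% and 7.84% in the WT H3K4me3 libraries. The 1569 regions chosen as WT-only had counts at 7.33% and 5.93% in the CSE-KO and at 7.46% and 4.46% in the WT libraries. In H3K23ac, 2782 regions chosen as CSE-KO-only had counts at 1.94% and 2.73% in the CSE-KO and 3.7% and 1.01% in the WT libraries, and the 726 chosen as WT-only at 0.964% and 0.689%, and at 3.58% and 0.551%. In 6 of these 6 readings the values of the CSE-KO and the WT libraries overlapped.

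**Figure D5:**
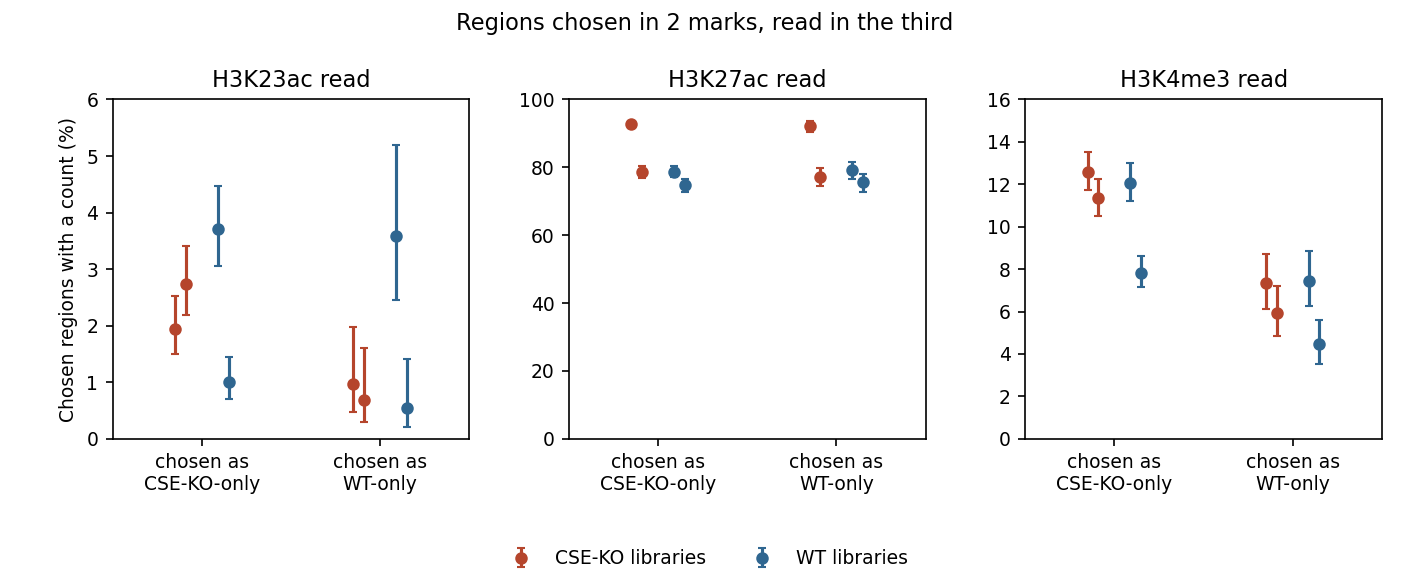
Each panel plots the share of regions (y axis, percent, with its own scale) that had a count in each library of a mark not used to choose them, for regions chosen as CSE-KO-only or as WT-only in the other 2 marks. Points are single libraries with Wilson 95% intervals. In H3K27ac both choices have counts in 74.7% to 92.8% of regions in libraries of either genotype.

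To put all 3 readings in a single value, the mean share in CSE-KO minus that in WT libraries was taken for CSE-KO-chosen regions, the same difference for WT-chosen regions was subtracted, and the results were added over the 3 marks. The value was 4.23 percentage points, made of 1.22 for H3K23ac, 1.67 for H3K27ac and 1.34 for H3K4me3. The value compares the 2 choices and does not say that each leaned to its own genotype. Regions chosen as WT-only had the higher mean share in CSE-KO libraries for H3K27ac (84.8% against 77.4%) and H3K4me3 (6.63% against 5.96%), and regions chosen as CSE-KO-only had 2.34% and 2.35% for H3K23ac. The summed value did not pass the threshold in the counts as deposited (exact permutation test within marks, two-sided p = 0.0648). With libraries thinned to equal totals it was 4.93 points and passed (p = 0.0185, exact permutation test), and with equal counts outside the own list 3.58 points (p = 0.0463, exact permutation test). A minimum count of 2 in the choice gave 6.42 points and keeping all lists 4.48, neither of which passed (exact permutation tests, p = 0.102 each). If libraries of the same genotype and replicate number are taken as a single source across marks, only 6 assignments exist, and the p was 0.333, the smallest they allow (exact permutation test). The value fell to 0.748 and 0.517 points without CSE-KO H3K4me3 replicate 1 or 2. It was 2.84 without WT H3K23ac replicate 1 and 2.94 without WT H3K4me3 replicate 1. It rose to 9.06 and 7.3 without CSE-KO H3K27ac replicate 1 or 2, and to 6.26 and 7.04 without WT H3K27ac replicate 1 or 2. Without each other library it was 3.86 to 4.98. Leaving out a library also changes which regions are chosen, as a count in 3 libraries was still required. The value thus changed with single libraries, in part through the choice, and its size is small beside the shares of 74.7% to 92.8% in H3K27ac.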

How the data were processed

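Values were whole-number read counts of regions, used as the authors deposited them, without scaling. The submitters' processing notes name ChIPseeker 1.38.0, edgeR 4.0.16, R 4.3.3 and Subread, beside the builds mm10 and GRCm39, without saying which was used for what. The aligner, the peak caller, the handling of duplicates and the counting of reads over several regions were not given in the sources used here. The members, the rule and the comparisons were chosen with earlier results of these data known.

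Set sizes were compared by exact permutation of genotype labels within marks, and the 10 thinning draws were made without replacement with fixed seeds (Python 3.11.15, numpy 2.4.6, pandas 2.3.3, scipy 1.17.1, figures with matplotlib 3.10.9). The genotype term was fitted with edgeR 4.0.16 in R 4.3.3 (glmQLFit and glmQLFTest, two-sided, mark as covariate, scaling by TMM, low counts removed by filterByExpr with min.count 10, Benjamini-Hochberg adjustment) and with DESeq2 1.42.0 as the second tool. The rule and the fits were tested on simulated data. CPM values use the library total. In each set, members were ordered by the number of libraries with a count, then by their lowest and then their summed CPM. The first 2 are named and the first 10 described. Depth ran from 396441 to 4242014 counts per library. A chi-square test of counts separated the replicates in every group, so all 12 libraries were kept as samples. Alternatives were thinning, minimum counts, numbers of libraries and marks, naming lists, pairing by replicate number, scaling, filter, tool, marks fitted alone and each library left out.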

Additional observations from a re-analysis of the deposited data

How the results depend on the processing

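The numbers of CSE-KO-only and WT-only regions were 8351 and 2522 as deposited, 5626.2 and 7441.1 at equal totals within marks, and 6644 and 5517.4 at equal counts outside the own list. A minimum count of 2 gave 2656 and 440, and of 3, 867 and 89. At least 4 libraries gave 952 and 172, at least 5 gave 81 and 8, and all 3 marks 1242 and 440. Without the library of the own list they were 1980 and 385, and without the H3K23ac lists 3060 and 822. Leaving out each library in turn gave 1226 to 26688 CSE-KO-only and 330 to 15791 WT-only regions. The difference of 5829 turned to -1814.9 at equal totals, to -14565 without CSE-KO H3K27ac replicate 1, to -2765 without CSE-KO H3K27ac replicate 2, and to -15804.7 (1178.6 and 16983.3 regions) when replicate 1 was left out of the thinned counts. Leaving out each library in turn gave differences of -14565 to 26358. In exact permutation tests over all these settings, the p of the difference and that of the sum ran from 0.176 to 0.824 and from 0.176 to 0.731. The part of depth, own lists and single libraries in these changes was not tested beyond these settings.

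Within marks, no pairing of the genotypes by replicate number was seen. The differences between replicates 1 and 2 in WT and in CSE-KO correlated across regions at -0.00878 for H3K23ac, -0.0885 for H3K27ac and -0.0645 for H3K4me3. With 1 such difference per genotype and mark, this check cannot settle whether the numbers pair the genotypes. Across marks pairing was not checked. With the replicate block, the exact permutation p of the difference of 5829 and of the sum of 10873 was 0.667 with the number as a single source across marks and 0.281 with exchange within mark and number. The reading of the third mark did not pass in the counts as deposited (4.23 points, exact permutation test, p = 0.0648). It also did not pass with a minimum count of 2 (6.42) or with all lists kept (4.48, exact permutation tests, p = 0.102 each). Thinned to equal totals, the reading passed (4.93, exact permutation test, p = 0.0185). Thinned to equal counts outside the own list, it passed too (3.58, exact permutation test, p = 0.0463). With the block by mark and number, the reading did not pass as deposited (4.23, exact permutation test, p = 0.0938). The same block at equal totals passed (4.93, exact permutation test, p = 0.0313). With the number as a single source the reading did not pass, as deposited or at equal totals (exact permutation tests, p = 0.333 each). Leaving out each library gave 0.517 to 9.06.

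The edgeR genotype term called 0 regions, and also 0 with the replicate block (619 at an unadjusted p under 0.05) and without each library in turn. DESeq2 called 1 region, edgeR with H3K27ac and H3K4me3 only called 3 and with H3K27ac alone called 3. The DESeq2 call was a member. The fit with H3K27ac and H3K4me3 only tested 0 members and so could call none of them. The fit with H3K27ac alone tested 3 members, all CSE-KO-only, and called 0 of them. The log2 fold change of peak7_55658 was 7.13 by edgeR (edgeR adjusted p = 0.969) and 6.07 by DESeq2 (DESeq2 adjusted p = 0.0163). The rule chose this region by its 0 counts in WT, so these values carry no weight as a test. The median summed count of 14 and 13 per member limits what a count of 0 in the other genotype can show.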
